A study of Mus musculus with 6 samples.

Results

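The secreted Wnt inhibitor genes Wif1, Sfrp1 and Sfrp2, the Wnt-responsive transcription factor gene Lef1 and the Notch ligand gene Dll3 were followed in primary mouse Sertoli cells and in the MSC-1 Sertoli cell line. They were taken by symbol or older alias from the authors' deposited list of genes that differed by 4-fold or more between the groups, and all 5 were found there, among 2295 genes with a symbol of their own. Together they had 10 probe sets on the list. An array probe set is a group of short probes read as 1 signal for 1 transcript region. Because the list was itself chosen at 4-fold on these arrays, a difference between the groups was a condition of entry, and the p-values below lend no independent support to it.

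Primary Sertoli cells, the nurse cells of the seminiferous tubule, came from mice of strain C57BL/6 x 129, aged 10 to 20 days by the growth protocol and 19 to 20 days by the series design, a difference that was not settled here. MSC-1 cells were established from a testis tumour in a transgenic mouse expressing SV40 large T antigen, so their group stands for a single tumour line. Cells of both groups were untreated and had aggregated for 48 h in Ham's F10 medium with 10% fetal bovine serum, and RNA from 3 samples of each group was hybridised to 6 arrays. Whether samples within a group came from separate cultures or mice is not labelled, so p-values measure only the spread between these arrays, which may be technical.

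Wnt proteins are secreted signals that bind Frizzled receptors with LRP co-receptors and stabilise beta-catenin, which then enters the nucleus and acts on DNA through factors of the LEF and TCF family. WIF1 and the secreted Frizzled-related proteins bind Wnt proteins outside the cell, and the Frizzled-related proteins carry a cysteine-rich domain like that of Frizzled itself. Notch signalling passes between touching cells, from Delta or Jagged ligands on one cell to Notch receptors on the next, and DLL3 is a divergent Delta protein that, in mice, does not activate Notch on neighbouring cells.

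RefSeq promoter windows, 250 bases before to 50 bases after a transcript start in build GRCm38.p6, were on hand for 4 of the 5 genes. The window of the first annotated start of each is printed, and which start these cells used was not measured. Capitals mark matches on either strand to 3 motifs, the TCF/LEF core CTTTGAT, the RBPJ core GTGGGAA and the GC box GGGCGG, none of which overlap here. The Wif1 window is chr10:121033754-121034053 on the plus strand, that of Sfrp2 chr3:83766071-83766370 on the plus strand, that of Lef1 chr3:131110047-131110346 on the plus strand and that of Dll3 chr7:28301736-28302035 on the minus strand.
Wif1: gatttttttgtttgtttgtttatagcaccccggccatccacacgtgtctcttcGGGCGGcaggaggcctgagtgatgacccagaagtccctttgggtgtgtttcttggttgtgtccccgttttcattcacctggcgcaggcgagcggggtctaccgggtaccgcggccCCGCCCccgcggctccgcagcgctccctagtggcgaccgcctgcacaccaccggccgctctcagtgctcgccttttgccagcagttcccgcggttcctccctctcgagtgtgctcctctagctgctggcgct
Sfrp2: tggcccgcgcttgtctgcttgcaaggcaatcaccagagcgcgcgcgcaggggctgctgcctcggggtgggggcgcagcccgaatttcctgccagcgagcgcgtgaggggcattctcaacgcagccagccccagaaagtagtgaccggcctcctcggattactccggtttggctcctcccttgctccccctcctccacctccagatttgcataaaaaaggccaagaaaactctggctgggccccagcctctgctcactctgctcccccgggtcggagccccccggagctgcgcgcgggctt
Lef1: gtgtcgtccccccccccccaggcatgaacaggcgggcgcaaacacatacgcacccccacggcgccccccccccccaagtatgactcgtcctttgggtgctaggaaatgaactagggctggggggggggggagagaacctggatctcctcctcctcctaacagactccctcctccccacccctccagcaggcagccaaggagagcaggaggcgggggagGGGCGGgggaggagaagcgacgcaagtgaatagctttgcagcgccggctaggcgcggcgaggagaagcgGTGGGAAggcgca
Dll3: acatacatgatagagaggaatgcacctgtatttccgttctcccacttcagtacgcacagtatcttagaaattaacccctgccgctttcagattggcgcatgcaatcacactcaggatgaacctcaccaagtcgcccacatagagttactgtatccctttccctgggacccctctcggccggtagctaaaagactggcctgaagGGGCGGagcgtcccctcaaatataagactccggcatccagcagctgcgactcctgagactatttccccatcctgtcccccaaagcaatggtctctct
The TCF/LEF core, held by 3.73% of all 32851 RefSeq promoter windows, was in none of these windows, nor in the windows of 3 further starts of Lef1. The RBPJ core, the DNA letters bound by the effector of Notch, was held by 6.38% of all windows and lay 38 bases after the first Lef1 start. The GC box, held by 35.7% of all windows, occurred 2 times in Wif1, 1 time in Lef1 and 1 time in Dll3, and Sfrp2 held none of the 3 motifs. The windows of Wif1, Sfrp2 and the first Lef1 start had 63.0%, 66.0% and 67.3% G and C, and that of Dll3 had 52.0%, beside a median of 52.7% over all windows. The furthest of the Lef1 starts lies 45997 bases downstream of the first, and its window had 43.7% G and C. A match of letters is a description and no measured site.

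The arrays held 45101 probe sets, and 45037 were tested after 64 control probe sets had been left out. The deposited signals were linear, with the same 2% trimmed mean of 125.0 on every array, and array medians lay at 27.2 to 29.8 in primary Sertoli cells and at 23.1 to 24.7 in MSC-1 cells. On log2(signal + 1), arrays correlated at 0.938 to 0.959 within the primary group, 0.956 to 0.959 within the MSC-1 group and 0.797 to 0.805 between groups. Every one of the 3198 probe sets on the authors' list had the sign of its fold matched by the signals, positive when higher in primary cells, which settles the direction. The limma fit called 16038 probe sets at an adjusted p under 0.05, which is 35.6% of those tested, with 17.4% higher in primary cells and 18.3% lower. Of all tested, 12.5% were called and also past 4-fold (log2 difference of 2), with 8.69% higher and 3.8% lower in primary cells. For 51.2% the 3 primary and 3 MSC-1 arrays did not overlap, and 7.1% are on the authors' list. Centring each array on its median moved every difference by -0.25 and left 35.7% of the calls higher in primary cells, against 48.7% without it. All 10 probe sets of the 5 genes were called, past 4-fold and without overlap, beside 3195 of the 3198 on the whole list, so nothing is read from that count. Their median size of difference was 4.18 on the log2 scale, beside 3.39 over the list and 0.69 over all probe sets tested. Entry at 4-fold fixed the gap to all probe sets in advance, and most of the 10 probe sets belong to Sfrp1 and Lef1.

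The 3 antagonists did not lie on the same side, which was known when they were chosen, so the split is given as a description. Wif1 and Sfrp1 were lower in primary Sertoli cells than in MSC-1 cells, and Sfrp2 was higher in primary Sertoli cells.

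Wif1, whose product binds Wnt proteins through a WIF domain, was read by 1425425_a_at and had signals of 0.598, 3.25 and 3.57 in primary Sertoli cells, against 256.0, 264.2 and 210.9 in MSC-1 cells. The groups did not overlap, and all 3 primary signals lay far below the array medians. The log2 difference was -6.28 ± 0.44 (SE, n = 3 arrays per group, limma adjusted p = 0.000319). With 1 added to each signal, 0.986% of all probe sets differed by more. The mean signal was 98.6-fold lower in primary cells, while the authors' deposited table gives 40.5-fold on the same side. Signals this low carry no detection call here, so the size of the Wif1 fold depends on how low signals are treated: with 16 added to each signal in place of 1, the log2 difference was -3.81.

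Sfrp1 was read by 4 probe sets, and each was lower on all 3 primary arrays than on any MSC-1 array. The probe set with the highest level, 1428136_at, had signals of 68.9, 66.7 and 55.8 in primary Sertoli cells, against 537.5, 731.7 and 691.5 in MSC-1 cells. Its log2 difference was -3.33 ± 0.20 (SE, n = 3 arrays per group, limma adjusted p = 0.000207), and 5.28% of all probe sets differed by more. All 6 signals of this probe set lay above the array medians.

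The other Sfrp1 probe sets gave differences of -2.91 ± 0.18, -4.41 ± 0.21 and -4.93 ± 0.35 on the log2 scale (SE, limma adjusted p from 0.000112 to 0.000351). The most different by signal, 1416594_at, had 15.95, 7.17 and 13.7 in primary cells, against 288.9, 491.2 and 402.5 in MSC-1 cells, a 32.1-fold lower mean. In the authors' deposited table that probe set has the smallest fold of the 4, 9.35, and 1460187_at has the largest, 31.2. The 2 sources thus share the direction of all 4 probe sets and order their sizes differently. All primary signals of 1416594_at lay below the array medians, so its place in the order by signal depends on how low signals are treated. With signals under 32 set to 32, its log2 difference was -3.59 and that of 1460187_at was -3.79.

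Sfrp2, a relative of Sfrp1 with the same Frizzled-like domain, was read by 1448201_at and had signals of 110.9, 48.2 and 56.6 in primary Sertoli cells, against 7.11, 19.0 and 10.4 in MSC-1 cells. The lowest primary signal was above the highest MSC-1 signal, and the first primary array stood well above the other two, at 1.54 times the group mean. The log2 difference was 2.47 ± 0.46 (SE, n = 3 arrays per group, limma adjusted p = 0.00893), the smallest of the 5 genes and the one with the widest error relative to its size. Of all probe sets, 9.18% differed by more. The authors' deposited table gives 5.42-fold higher in primary cells, and the ratio of mean signals was 5.91. With signals under 32 set to 32, the difference was 1.07 with a limma adjusted p of 0.109, so the Sfrp2 call depends on how far below 32 the MSC-1 signals are taken to lie. With 16 added to each signal it was 1.60 (limma adjusted p = 0.00279).

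**Figure D1:**
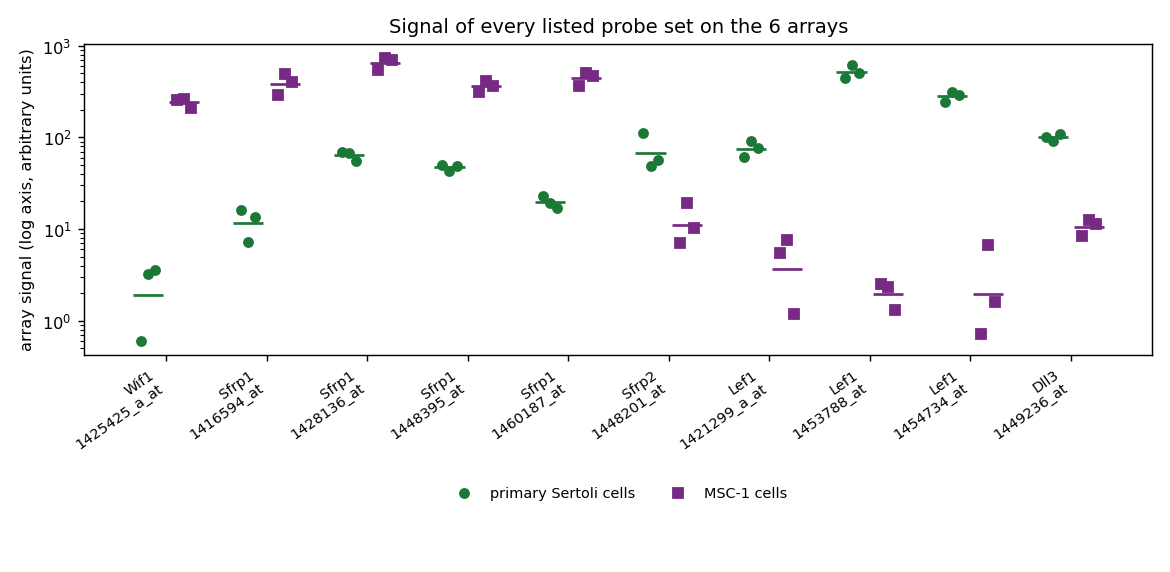
Signal of the 10 listed probe sets of Wif1, Sfrp1, Sfrp2, Lef1 and Dll3 on each array, on a log axis in arbitrary units, with primary Sertoli cells as green circles left of MSC-1 cells as purple squares and the geometric mean of 3 arrays as a line. Wif1 and all 4 Sfrp1 probe sets are lower in primary cells, and Sfrp2, the 3 Lef1 probe sets and Dll3 are higher.

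Lef1, an HMG-box factor through which beta-catenin acts on DNA, was higher in primary Sertoli cells by all 3 of its probe sets. The one with the highest level, 1453788_at, had signals of 446.0, 615.0 and 498.4 in primary Sertoli cells, against 2.48, 2.31 and 1.32 in MSC-1 cells. The groups did not overlap, and all MSC-1 signals lay far below the array medians. The log2 difference was 7.43 ± 0.24 (SE, n = 3 arrays per group, limma adjusted p = 3.7e-05). With 1 added to each signal, 0.431% of all probe sets differed by more. With 16 added to each signal the log2 difference was 4.88.

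The Lef1 probe set 1454734_at had 242.2, 314.6 and 289.5 in primary cells, against 0.722, 6.72 and 1.58 in MSC-1 cells, a log2 difference of 6.44 ± 0.56 (SE, limma adjusted p = 0.000651). The dimmer 1421299_a_at had 61.4, 90.4 and 77.3 in primary cells, against 5.51, 7.64 and 1.18 in MSC-1 cells, a log2 difference of 3.94 ± 0.54 (SE, limma adjusted p = 0.00296). In all 3 the second primary array was the highest and the first the lowest. The ratio of mean signals for 1453788_at was 255.2, whereas the authors' deposited table gives 13.4-fold, with 6.10-fold and 7.17-fold for 1454734_at and 1421299_a_at. The ratio of mean signals was 93.8 and 15.99 for those 2, so the sources differ most in size for 1453788_at and 1454734_at. No source used here states how the authors computed theirs.

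Dll3, read by 1449236_at, had signals of 100.3, 91.7 and 108.4 in primary Sertoli cells, against 8.44, 12.5 and 11.3 in MSC-1 cells. The groups did not overlap, and all MSC-1 signals lay below the array medians. The log2 difference was 3.12 ± 0.20 (SE, n = 3 arrays per group, limma adjusted p = 0.000262), and 6.04% of all probe sets differed by more. The ratio of mean signals, 9.31, lay close to the 9.36-fold of the authors' deposited table. With 16 and 64 added to each signal the log2 difference was 2.12 and 1.13.

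**Figure D2:**
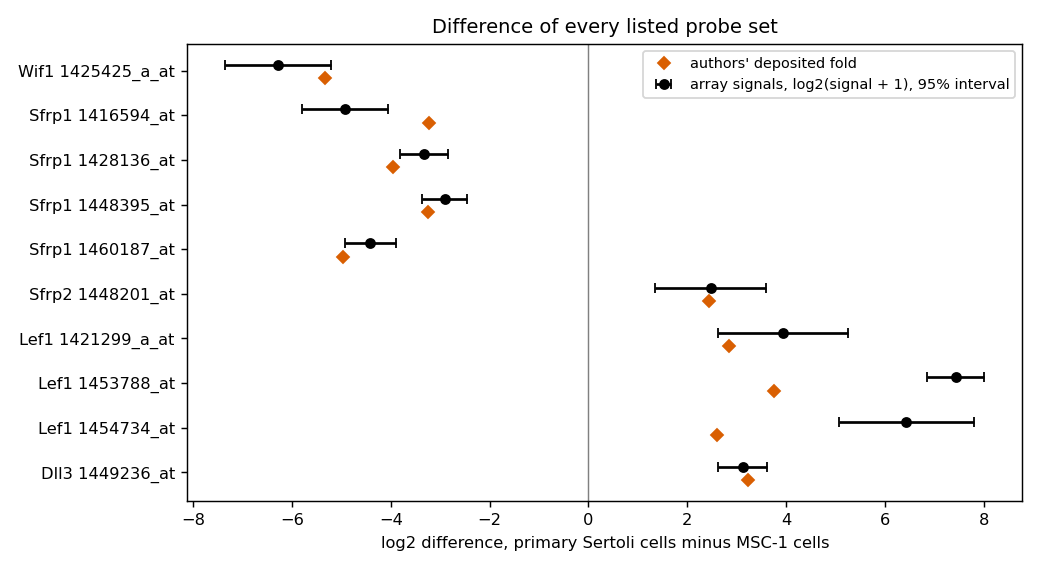
Log2 difference, primary Sertoli cells minus MSC-1 cells, of the 10 probe sets, from the array signals (black circles, with 95% intervals of the limma fit over 3 arrays per group) and from the authors' deposited fold (orange diamonds, with no error). The sources agree in direction for all 10, and lie furthest apart for Lef1 1454734_at, at 6.44 by the signals and 2.61 by the deposited fold.

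The other genes of both pathways were read from lists of 98 Wnt genes and 42 Notch genes. Only genes on the authors' list could be named, because the array table carries no gene names, so the 91 Wnt and 39 Notch genes that were not found are not analysed here and cannot be called unchanged. Of the 10 found, 6 were higher and 4 lower in primary cells, beside 62.0% of the 2295 genes of the list higher in primary cells. Without the 5 genes described above, 3 were higher and 2 lower in primary cells. All 5 were called by limma, and nothing is read from this because the list was chosen at 4-fold.

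On the Wnt side the 3 were Wnt4, Fzd6 and Tle4, and all were higher in primary cells. Wnt4, a ligand with a known role in the sexual differentiation of the gonad, was the 1 ligand found among 19 and had signals of 208.6, 221.6 and 207.5 in primary Sertoli cells, against 24.5, 38.8 and 35.01 in MSC-1 cells. Its log2 difference was 2.68 ± 0.22 (SE, limma adjusted p = 0.000524). Fzd6, a Frizzled receptor and the 1 found of 18 receptors and co-receptors, had 206.2, 104.9 and 137.6 in primary cells, against 10.2, 1.74 and 2.03 in MSC-1 cells, a log2 difference of 4.999 ± 0.61 (SE, limma adjusted p = 0.00197). Tle4, a Groucho-type co-repressor that binds LEF and TCF factors, had 129.0, 231.1 and 230.9 in primary cells, against 0.988, 4.04 and 8.61 in MSC-1 cells by its brighter probe set. That is a log2 difference of 5.38 ± 0.61 (SE, limma adjusted p = 0.00155), and the dimmer Tle4 probe set gave 4.11 ± 0.70 (SE, limma adjusted p = 0.00651). The MSC-1 signals of Fzd6 and Tle4 lay below the array medians, so their fold sizes depend on how low signals are treated. With 16 added to each signal, the log2 difference was 2.98 for Fzd6 and 3.35 for the brighter Tle4 probe set. Lef1 and Tle4 were the 2 found of 13 LEF/TCF factors and cofactors, and Lef1 was the 1 found of 15 Wnt target genes. None of 17 cytoplasmic transducers and none of 9 R-spondin, LGR and ligase genes was found.

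On the Notch side, Dll3 was the 1 ligand found of 7, and both other genes lay on the opposite side. Notch1, a receptor, had signals of 96.6, 57.5 and 85.4 in primary Sertoli cells, against 385.6, 400.6 and 440.2 in MSC-1 cells, a log2 difference of -2.37 ± 0.24 (SE, limma adjusted p = 0.00106). Its second probe set gave -2.32 ± 0.19 (SE, limma adjusted p = 0.000522). Pofut1, which adds the O-fucose that Notch receptors need, had 15.6, 17.6 and 19.8 in primary cells, against 73.7, 67.5 and 65.8 in MSC-1 cells, a log2 difference of -1.91 ± 0.17 (SE, limma adjusted p = 0.000701). All 3 Pofut1 signals in primary cells lay below the array medians, and with 16 added to each signal the log2 difference was -1.34. Its mean signal was 3.91-fold lower in primary cells, short of 4-fold, while the authors' deposited table gives 4.39-fold. None of 15 Notch effector genes was found.

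**Figure D3:**
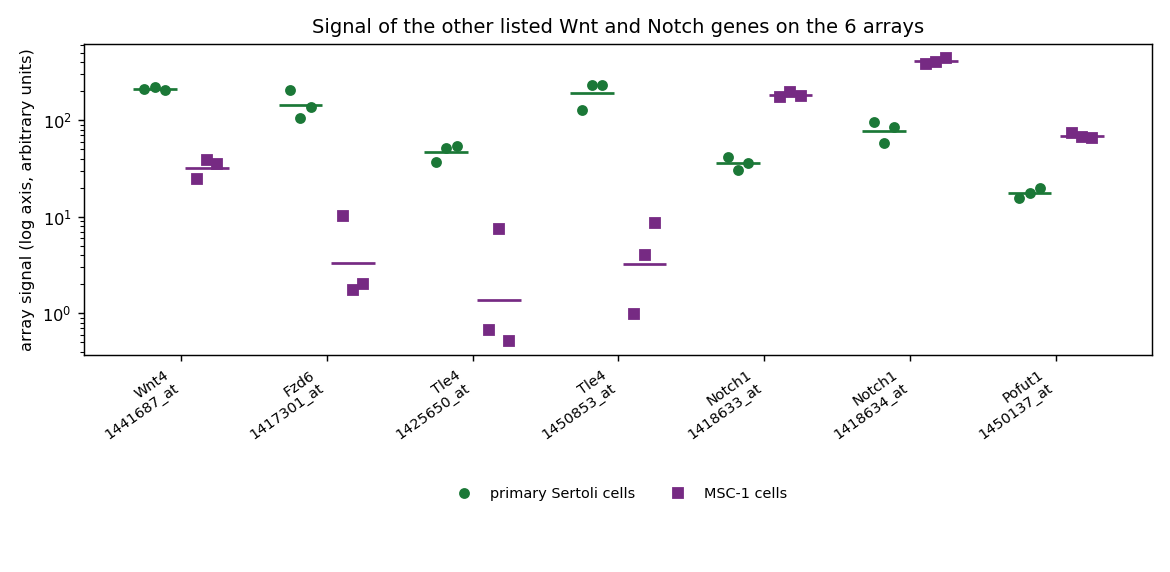
Signal of the other Wnt and Notch genes on the authors' list on each array, on a log axis in arbitrary units, with primary Sertoli cells as green circles left of MSC-1 cells as purple squares and the geometric mean of 3 arrays as a line. Wnt4, Fzd6 and Tle4 are higher in primary cells, and Notch1 and Pofut1 are lower.

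The labelled cell types were set against markers, again only those on the authors' list. Of 13 Sertoli cell markers 6 were found, of which Sox9, Cst12, Inha, Clu and Aard were higher in primary cells and Trf lower. In MSC-1 cells Aard stood at 0.454 to 1.65 and Cst12 at 7.32 to 23.9, below the array medians. The other 4 lay above them in the line, with Inha at 26.1 to 30.9, Sox9 at 28.1 to 39.7, Clu at 395.2 to 581.2 and Trf at 3503 to 4508. Of 8 Schwann cell and melanocyte markers 7 were found, all lower in primary cells, with summed signals of 103.5 to 135.1 in primary cells and 6500 to 9799 in MSC-1 cells. Wif1 and Sfrp1 were lower in primary cells together with these markers, and the part of the markers in that result was not tested.

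Primary preparations also carried markers of other testis cells. Of 12 germ cell markers 5 were found, with summed signals of 2404 to 3672 in primary cells and 25.9 to 41.8 in MSC-1 cells. Of 6 peritubular myoid cell markers, genes of the contractile cells around the tubule, 3 were found, with sums of 1069 to 2076 in primary cells and 90.2 to 109.5 in MSC-1 cells. Star of the 6 Leydig cell markers and Fcgr3 of the 6 macrophage markers were found, both higher in primary cells, and none of 6 endothelial markers. In such bulk samples fewer cells of a type and less RNA per cell cannot be told apart, and how much of the Sfrp2, Lef1 or Dll3 signal came from these other cells was not tested.

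The 3 primary arrays differed among themselves and Sfrp2 and Lef1 did so in opposite ways. The first primary array had 1.54 times the group mean for Sfrp2 and 1.38 times for Fzd6, with 1.501 for the smooth muscle actin gene Acta2, 1.51 for Tagln and 1.14 for Myl9, the 3 peritubular markers found. The same array had 0.858 times the group mean for Lef1 and 0.655 for Tle4. Germ cell markers on that array were at 0.670 for Stra8, 0.677 for Pgk2, 0.687 for Dmrtb1 and 0.927 for Sycp1, all below the mean. Only Dmc1, at 1.09, was above it. Sertoli cell markers lay on both sides, at 0.407 for Cst12, 0.678 for Sox9, 0.868 for Trf, 0.893 for Aard, 1.13 for Inha and 1.23 for Clu. The Leydig cell marker Star and the macrophage marker Fcgr3 were at 0.952 and 0.727 on the same array. Dll3 and Wnt4 varied little, at 0.916 to 1.08 and 0.976 to 1.04 times their group means. With 3 arrays these are orders of values and no tested relation. Without the first primary array the Sfrp2 log2 difference was 2.12 (limma adjusted p = 0.02).

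**Figure D4:**
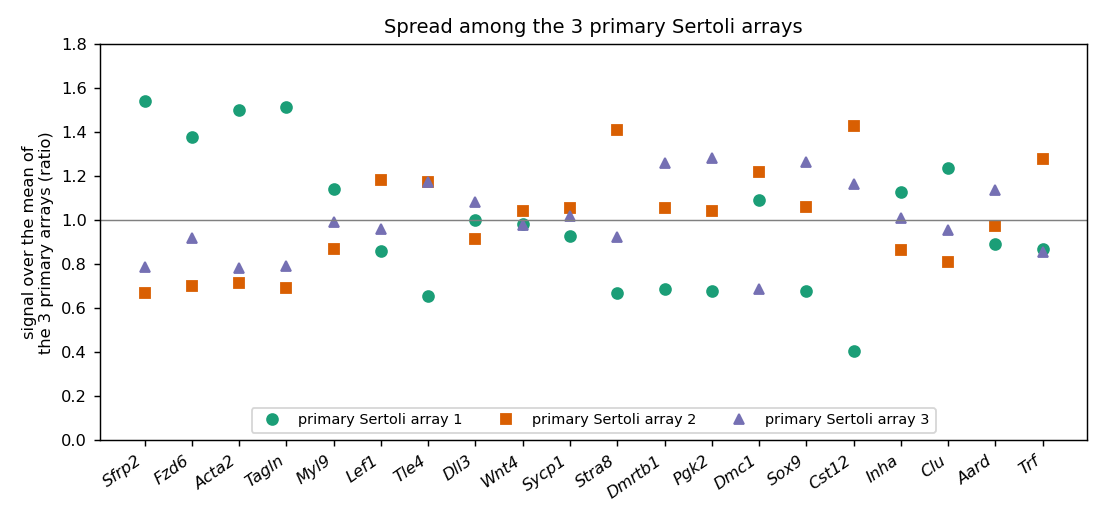
Signal of each primary Sertoli array divided by the mean of the 3 primary arrays, for Wnt and Notch genes beside every peritubular, germ and Sertoli cell marker found. The first array (circles) is highest for Sfrp2, Fzd6 and the peritubular markers Acta2, Tagln and Myl9 and lowest for Lef1 and Tle4, while germ and Sertoli cell markers lie on both sides of the mean.

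The genes most like each of the 5 were sought by Pearson correlation over the 6 arrays, on log2(signal + 1), among 1861 genes of the list with a mean above the median of all probe sets. Over 2 groups of 3 arrays such a correlation is set mostly by the difference between the groups, so it is given as a description. Nearest to Wif1 were Aunip and Osgin1 (r = 0.9993 and 0.9988), and to Sfrp1 Vgll3 and P3h4 (0.9995 and 0.9993). Nearest to Sfrp2 were Prkar1b, a regulatory subunit gene of protein kinase A, and the osteopontin gene Spp1 (0.9928 and 0.9897). Both had their highest signal on the first primary array, at 119.5 for Prkar1b and 3837 for Spp1. Nearest to Lef1 were the ubiquitin hydrolase gene Uchl1 and 1700097M23Rik (both 0.9999), and to Dll3 the testis-specific kinase gene Tssk1 and the Sertoli cell gene Aard (0.9989 and 0.9988).

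**Figure D5:**
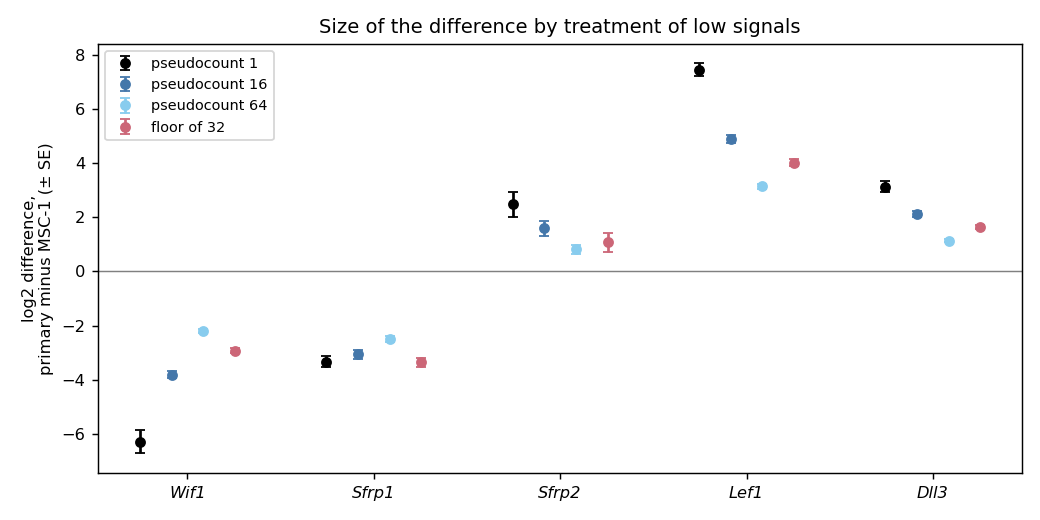
Log2 difference, primary Sertoli cells minus MSC-1 cells, with its SE from the limma fit (3 arrays per group), for each gene's brightest probe set under 4 ways of treating low signals. No direction changes, Sfrp1 moves least, and Lef1 and Wif1 move from 7.43 to 3.13 and from -6.28 to -2.21 between pseudocounts of 1 and 64.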

How the data were processed

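The authors deposited a table of linear array intensity (signal) for 45101 probe sets on 6 arrays, and a list of signed fold changes for 3198 of them. Per the submitters' processing notes GCOS, Affymetrix software, was used, with no version or role given, and other steps, including how folds were computed, are not given in the sources used here. From the values, each array was scaled to 1 trimmed mean, and no further normalization was applied. Biotin-labelled cRNA was made from 10 ug of RNA, per the labels. Depth has no meaning for arrays, and their number limits the precision.

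Signals became log2(signal + 1) and were fitted with limma 3.58.1 (lmFit, eBayes; R 4.3.3), 3 primary against 3 MSC-1 arrays, with Benjamini-Hochberg adjustment over 45037 probe sets and a threshold of 0.05. The fit was also run on simulated data with known changes and independent noise. That run held no array effects, and nothing is read from it. Genes were named from the list's 3069 probe sets with 1 symbol, updated through RefSeq (GRCm38.p6). A gene's main probe set has the highest mean log2 signal over the 6 arrays. Named are every probe set of the 5 genes, the called genes of 10 Wnt and Notch lists (up to 3 per side and list), and the 2 most correlated genes each. Members and lists were chosen with earlier results of these data known. Alternatives changed the pseudocount, normalization, filter, replicate block, eBayes options, probe set rule, threshold and arrays used. Replicate numbers were not used to pair the samples in the main fit. Joins, motif searches and figures used Python 3.11.15 with pandas 2.3.3, numpy 2.4.6, matplotlib 3.10.9 and scipy 1.17.1.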

Additional observations from a re-analysis of the deposited data

How the results depend on the processing

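Over 16 alternatives, 17 log2 differences gave 262 values, of which 260 kept direction and side of the threshold and 0 reversed. Nothing is read from that count, because the genes entered at 4-fold on these same arrays. The filter, replicate block, eBayes and threshold settings also left unchanged the size of every difference they kept. The 2 lost calls came from setting signals under 32 to 32, an alternative chosen after seeing the data, at 1.07 for Sfrp2 (limma adjusted p = 0.109) and 0.56 for the dimmer Tle4 probe set (limma adjusted p = 0.0831). That floor also left 5 in place of 6 listed Wnt and Notch genes called higher in primary cells. Leaving out 1 array at a time gave -6.55 to -5.79 for Wif1, -3.46 to -3.24 for Sfrp1, 2.12 to 2.83 for Sfrp2, 7.25 to 7.54 for Lef1 and 2.97 to 3.23 for Dll3, all called. With probe sets under the median level left out, Fzd6 and the dimmer probe sets of Lef1 and Tle4 gave no value. Over all probe sets, 7817 calls were higher and 8221 lower in primary cells, and at an adjusted p under 0.01 these were 4854 and 4310. Without the third MSC-1 array, 5475 were lower in primary cells.

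Same-numbered arrays deviated from their group means with correlations of -0.019, -0.035 and 0.0045, beside -0.032 to 0.049 for arrays of other numbers. Pairing by number was thus not seen, but with 3 arrays per group this check cannot exclude it. With the replicate block, Sfrp2 kept 2.47 at a limma adjusted p of 0.0432, and Wif1, Sfrp1, Lef1 and Dll3 stayed called. Low signals limit the fold sizes of several genes, among them Wif1, Lef1, Fzd6 and Tle4, since no detection calls are given.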
